A study of Mus musculus with 23 samples.

Results

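The SLC25 proteins are the mitochondrial carriers, a family that moves nucleotides, phosphate, carboxylates, amino acids, acylcarnitines, cofactors and metals across the inner mitochondrial membrane (a few members sit in other membranes). They were followed here in the gastrocnemius, the large calf muscle, of male C57BL/6J mice that were adult or old and were left sedentary or trained on a treadmill. Members were taken as every gene whose symbol starts with Slc25a. The RefSeq table lists 48 such symbols, 47 had a probe on the array, and 39 were tested among the 15466 named genes and 23707 features (named genes and unnamed transcripts) of the whole array. A feature was tested where its probe was well above background on at least 3 of the 23 arrays. Slc25a18, Slc25a21, Slc25a31, Slc25a41, Slc25a43, Slc25a48, Slc25a53 and Slc25a54 did not reach that level and were not tested, and the pseudogene Slc25a5-ps had no probe. Of the 39, 35 were well above background on all 23 arrays, and Slc25a2, Slc25a10, Slc25a15 and Slc25a23 on some.

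Whole-muscle RNA of 23 samples was labelled with Cy3 and hybridised to 1-colour Agilent arrays, 1 sample per array. Old mice entered at 24 months and were sampled at 25, adult mice (the labels' young group) entered at 5 months and were sampled at 6. HIIT (high-intensity intermittent training) meant 3 short runs a day, each lasting 2 min at a speed of 27 m/min and separated by a slow minute at 5 m/min. MICT, the slower protocol, meant 1 run a day that lasted 45 min at a speed of 13 m/min. Both lasted 4 weeks, and muscle was taken after 12 h of rest. Sedentary controls were brought to the same room and met a treadmill that was switched off. All mice were kept singly on the same chow. The groups held 4 arrays each, for adult controls, adult HIIT, old controls, old HIIT and old MICT, and 3 for adult MICT. The labels do not say whether each array held RNA of 1 animal, so the p-values measure the spread between these samples. Levels are log2 of the processed signal minus the array's 75th percentile, and a level is not compared between genes, since each has its own probe. Fold changes, standard errors (SE) and p-values come from limma fitted on all 23707 features, with Benjamini-Hochberg adjustment over all of them, and a member is called at an adjusted p under 0.05.

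The arrays lay on 3 slides: adult controls and adult HIIT on the first, adult MICT and old controls on the second, and old HIIT and old MICT on the third. Between 47.2% and 58.9% of spots were well above background on an array. All 10 genes chosen to mark gastrocnemius muscle fibres, such as Acta1 and Myh4, were tested. Their median level lay between -0.67 and 0.44 log2 units of the adult control mean on the 23 arrays. Old controls stood apart in genes of other cells: the median of 8 B and plasma cell markers was 2.12 to 6.08 log2 units above the adult control mean in them and -0.07 to 0.35 in old MICT. The old HIIT values for these markers were 1.07 to 4.34. In whole muscle, fewer cells of a type and less RNA per cell cannot be told apart.

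Carriers set which substrates reach the enzymes of the matrix. Slc25a4 and Slc25a5 exchange ADP for ATP and Slc25a3 brings in phosphate for ATP synthesis. Slc25a20 carries acylcarnitines in for fatty acid oxidation, and Slc25a11 and Slc25a12 run the malate-aspartate shuttle that delivers reducing equivalents from glycolysis. Slc25a1 exports citrate, from which the cytosol makes lipid. Most carriers are made in the cytosol and are inserted into the inner membrane by the TIM22 pathway, with small TIM chaperones that escort them between the membranes.

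Promoter sequences were available from the RefSeq table (GRCm38.p6) for 29 of the 39 tested members, with 37 start sites. They are shown for 4 members on which the results turn: Slc25a33, the member whose response to MICT differed between the ages, Slc25a34, which had the greatest fitted difference with MICT in old mice, Slc25a20, and Slc25a1, which went down. The 250 bases before the start site are given in the direction of transcription, at chr4:149774268-149774517 (minus strand), chr4:141623835-141624084 (minus strand), chr9:108661886-108662135 (plus strand) and chr16:17928220-17928469 (minus strand). Capitals mark matches, on either strand, to the GC box GGGCGG, the CCAAT box, the ETS factor core CCGGAAG or the nuclear receptor half-site AAGGTCA, which the ERRs use; no 2 matches overlap.
Slc25a33: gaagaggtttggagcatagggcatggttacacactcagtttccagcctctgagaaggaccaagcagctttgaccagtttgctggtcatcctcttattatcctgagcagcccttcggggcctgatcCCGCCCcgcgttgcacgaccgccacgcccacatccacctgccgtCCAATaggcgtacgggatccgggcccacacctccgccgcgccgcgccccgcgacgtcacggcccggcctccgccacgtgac
Slc25a34: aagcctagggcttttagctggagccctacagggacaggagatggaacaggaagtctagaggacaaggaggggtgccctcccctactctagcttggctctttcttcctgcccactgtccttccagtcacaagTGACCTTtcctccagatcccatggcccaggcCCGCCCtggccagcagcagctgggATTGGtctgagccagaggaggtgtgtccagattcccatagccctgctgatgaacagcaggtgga
Slc25a20: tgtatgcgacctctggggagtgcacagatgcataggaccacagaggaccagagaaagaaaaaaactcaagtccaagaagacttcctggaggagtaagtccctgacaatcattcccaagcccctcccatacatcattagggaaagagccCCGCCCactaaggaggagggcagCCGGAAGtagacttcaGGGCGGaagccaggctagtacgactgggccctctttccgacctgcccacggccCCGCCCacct
Slc25a1: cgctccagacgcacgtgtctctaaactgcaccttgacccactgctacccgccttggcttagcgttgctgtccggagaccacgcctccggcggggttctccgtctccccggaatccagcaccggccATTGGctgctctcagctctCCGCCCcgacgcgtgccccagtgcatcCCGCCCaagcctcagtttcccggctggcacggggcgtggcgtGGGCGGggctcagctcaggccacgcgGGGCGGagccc

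The members' promoters had many GC boxes and no TATAAA. In the window from 250 bases before to 50 bases after the start site, GGGCGG was in 33 of 37 members' promoters (89.2%), against 56.2% of the 15486 promoters of all named genes tested and 35.7% of all 32851 promoters. TATAAA was in 0 of 37, against 9.02% and 13.6%. CCAAT was in 20 of 37 (54.1%), against 37.1% and 37.4%. The ETS core was in 6 of 37 (16.2%), those of Slc25a3, Slc25a4, Slc25a17, Slc25a20, Slc25a25 and Slc25a38, against 14.4% and 8.86%. AAGGTCA was in 1 of 37 (2.7%), that of Slc25a34, against 3.57% and 4.72%. Longer forms, TNAAGGTCA for ERRs, CCGGAAGTG for GABPA and TCACNCCAC for SREBPs, were in 0 of the 37, and each was in at most 3.45% of the promoters of named genes tested. GC boxes were in 8 of the 9 promoters at hand of members called higher with MICT in old mice and in 4 of the 4 of members called lower. These matches are descriptions of letters in this window.

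Across the 6 groups the family was lowest in old controls. The median over the 39 members, as a difference from the adult control mean, was -0.43, -0.48, -0.12 and -0.29 log2 units in the 4 old controls. In old MICT it was 0.12, 0.08, -0.06 and 0.03, and in old HIIT 0.05, -0.14, -0.17 and -0.21. Adult arrays lay between -0.13 and 0.09. Old controls 1, 2 and 4 thus lay below every other array, and old control 3 lay among the old HIIT values and within the adult range. The same arrays differed in other cells' genes: B and plasma cell markers were 6.08, 4.75, 2.38 and 2.12 in old controls 1 to 4, and adipocyte markers 3.95, 2.82, 2.19 and 0.21. Fits with slow-twitch, adipocyte and lymphocyte marker scores as covariates are given for MICT in old mice, for age and for the MICT response between ages.

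**Figure D1:**
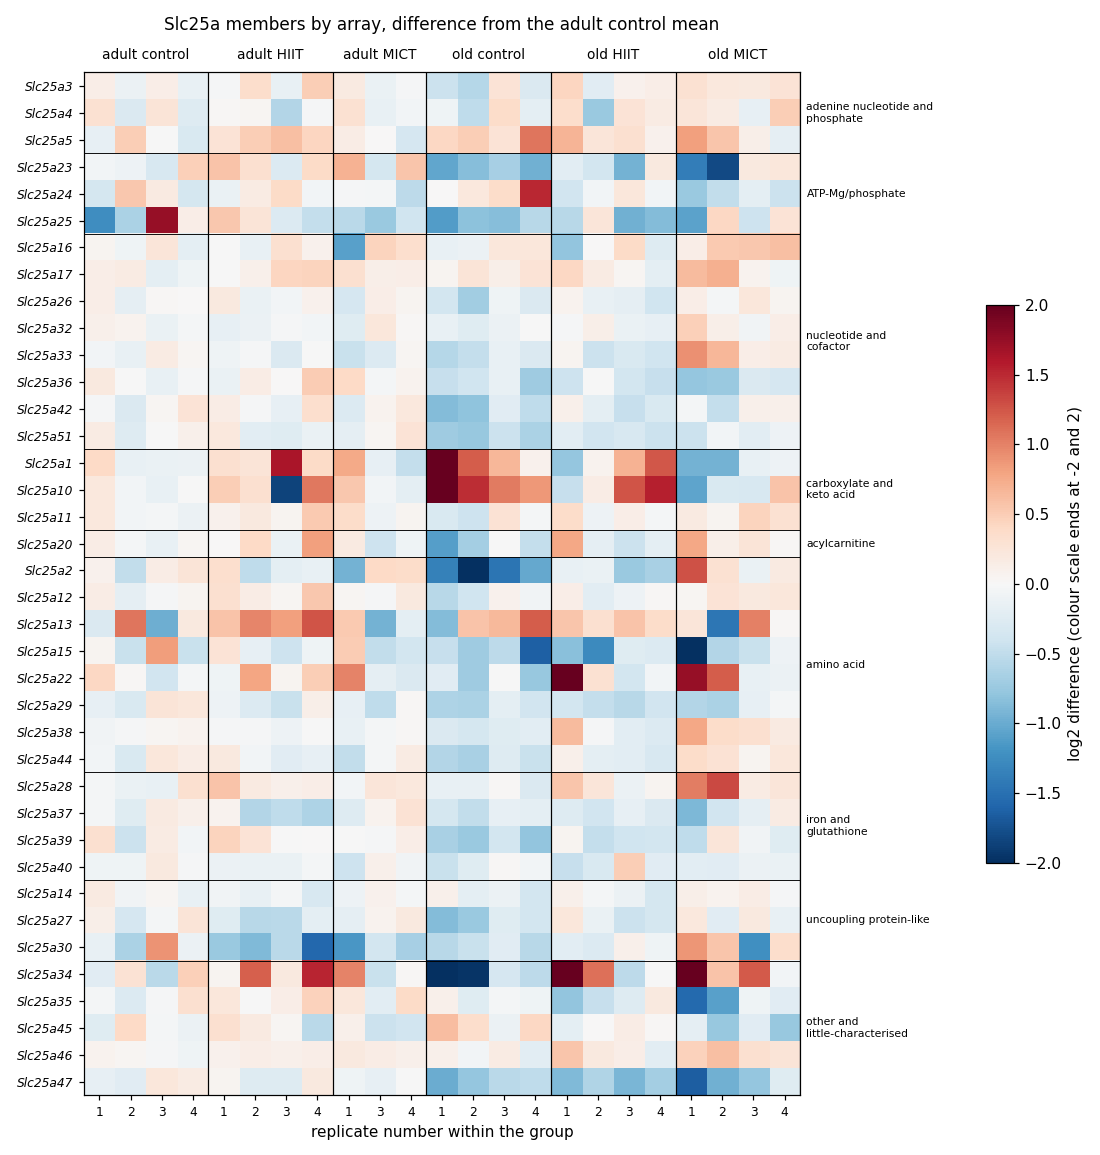
Of the 39 tested members, 38 (rows, grouped by substrate) on each of the 23 arrays (columns, by group and replicate number), as the log2 difference from the adult control mean; the colour scale ends at -2 and 2. Old controls are blue for most members. Their strongest red on average is in Slc25a10 and Slc25a1, with weaker red in others such as Slc25a5 and Slc25a24. Old MICT arrays 1 and 2 hold the deepest red of Slc25a28 and Slc25a33.

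**Figure D2:**
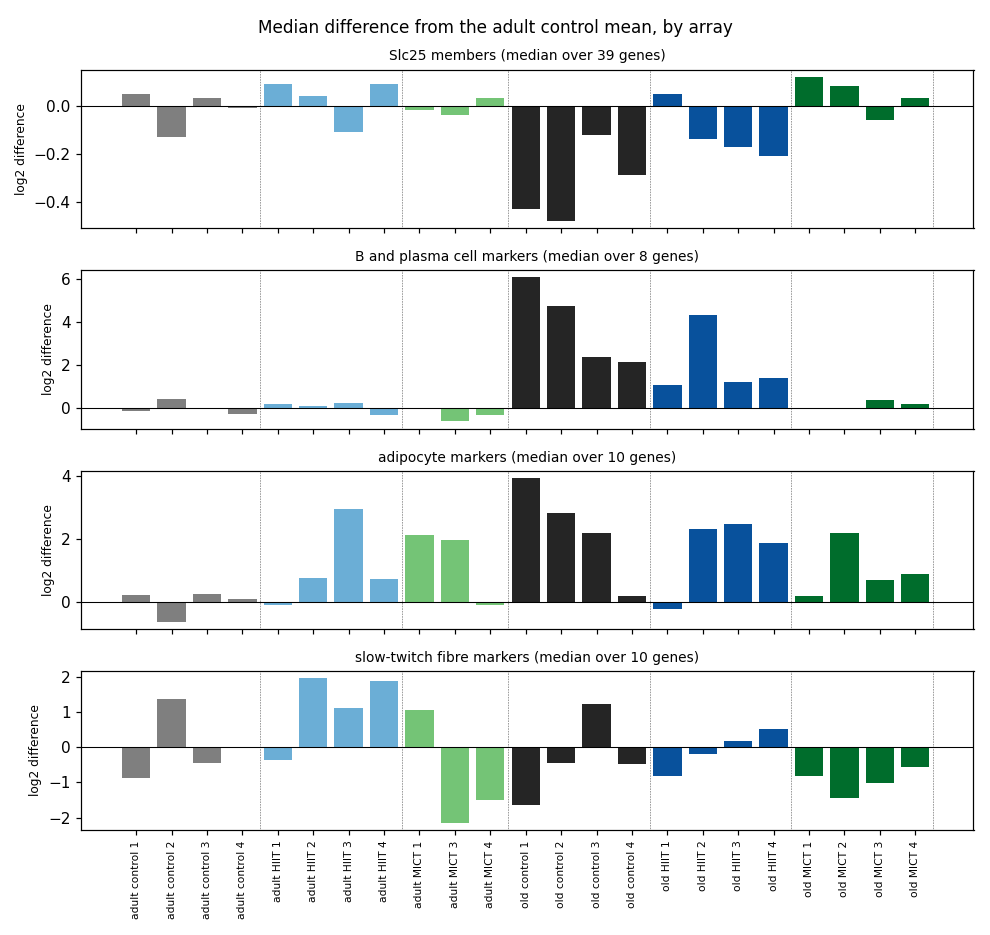
Bars give, for each array, the median log2 difference from the adult control mean over the 39 members, over 8 B and plasma cell markers, over 10 adipocyte markers and over 10 slow-twitch fibre markers. The lowest bars for the members are old controls 2, 1 and 4 (-0.48, -0.43 and -0.29), while old control 3 is at -0.12; the tallest for B and plasma cells are old controls 1 and 2 (6.08 and 4.75), followed by old HIIT 2 (4.34).

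Moderate continuous training in old mice was the comparison with the most carrier genes called. In old MICT against old controls, 15 of 39 members rose (38.5%, against 21.2% of all features) and 4 fell (10.3%, against 9.03%). The median difference over the members was 0.36 log2 units, against 0.19 over all features, which was 0.06 after quantile scaling of the arrays (0.15 for the members). With that scaling 9 members rose and 4 fell, and 22.9% of all features were called. Of the 35 members above background on all arrays, 14 rose and 3 fell. Levels of the 2 groups did not overlap for 14 members, 10 of them higher in MICT (16.5% of all features were higher without overlap) and 4 lower (5.74%). The groups lay on different slides, and in a model of age, regimen and slide, where a regimen has 1 effect at both ages, 0 members and 0 features were called. With only these 2 groups in the fit 0 members and 0 features were called, with the marker scores as covariates 0 members, without old controls 1 and 2 together 1 member, and without old MICT 1 and 2 together 0. Slc25a33 had 0.64 ± 0.23 (SE) in the slide model and 0.44 ± 0.25 with the covariates, and Slc25a34 had 1.08 ± 0.96 and 2.28 ± 0.86. Other called members came near 0 in 1 of these fits or both: Slc25a51 had 0.05 ± 0.18 and 0.12 ± 0.19, Slc25a26 0.28 ± 0.19 and 0.13 ± 0.2, Slc25a3 0.32 ± 0.24 and 0.1 ± 0.23, and Slc25a39 0.33 ± 0.25 and 0.11 ± 0.29. Slc25a1 had -0.2 ± 0.65 in the slide model.

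Genes of other cells moved in the same comparison, in which 9.03% of all features fell and 21.2% rose. Of the markers tested, 7 of 8 for B and plasma cells, 7 of 11 for T and NK cells, 6 of 8 for fibroblasts, 3 of 7 for macrophages, 2 of 9 for neutrophils and mast cells and 1 of 10 for adipocytes fell, and 1 fibroblast gene rose. The B and plasma cell genes were well above background for 7 to 8 of 8 in the old controls and for 4 to 5 of 8 in old MICT. Fibroblast medians were -0.36 to 0.78 in the old controls and -2.09 to -0.68 in old MICT. Of the 10 gastrocnemius fibre genes 3 rose, and of 10 slow-twitch genes 0 were called. The part of fibroblasts in the carrier results was not tested.

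The nucleotide and cofactor carriers gave 4 rises among 9 members (44.4%, against 21.2% of all features) and 0 falls (against 9.03%). Slc25a33 imports pyrimidine nucleotides into mitochondria. Its level was 2.45, 2.54, 2.87 and 2.73 in the old controls and 3.94, 3.69, 3.15 and 3.19 in old MICT. Every MICT array was above every control, and arrays 1 and 2 stood above the other two. The difference was 0.84 ± 0.16 (SE, n = 4 and 4; 1.8-fold; limma adjusted p = 0.00363), and a second probe of the gene gave 0.86. Adult controls were at 2.88 to 3.19, next to the lower 2 MICT values.

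Slc25a51 carries NAD+ into the matrix. Its level was 2.99, 2.93, 3.27 and 3.07 in the old controls and 3.26, 3.64, 3.49 and 3.6 in old MICT, so that the highest control lay just above the lowest MICT array. It rose by 0.43 ± 0.13 (SE; limma adjusted p = 0.018), and its second probe gave 0.21. Slc25a26, the carrier of S-adenosylmethionine, the methyl donor, was at 2.57, 2.24, 2.85 and 2.64 in the old controls and 3.07, 2.89, 3.16 and 2.98 in old MICT. Its groups did not overlap, and it rose by 0.45 ± 0.13 (SE; limma adjusted p = 0.0191). Slc25a42, a carrier of coenzyme A, rose by 0.52 ± 0.17 (SE; limma adjusted p = 0.0281) with overlapping groups. Without old control 2 the calls of Slc25a51, Slc25a26 and Slc25a42 were lost, that of Slc25a51 also without old MICT 2 and that of Slc25a42 also without old control 1 or old MICT 1, 3 or 4. Slc25a16, Slc25a17, Slc25a32 and Slc25a36, also nucleotide and cofactor carriers, had differences between -0.1 and 0.4 and were not called.

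Among 8 amino acid carriers tested, 4 rose (50%, against 21.2% of all features) and 0 fell (against 9.03%). Slc25a44 takes branched-chain amino acids into mitochondria. Its level was -1.01, -1.07, -0.68 and -0.86 in the old controls and -0.06, -0.13, -0.37 and -0.19 in old MICT, with no overlap. The rise was 0.72 ± 0.16 (SE; 1.64-fold; limma adjusted p = 0.00537), and its second probe gave 0.53. Slc25a38 imports glycine, the first substrate of haem synthesis. It was at 2.71, 2.66, 2.76 and 2.8 in the old controls and 3.78, 3.37, 3.32 and 3.18 in old MICT. The old controls were tightly grouped below every MICT array, and the rise was 0.68 ± 0.15 (SE; 1.6-fold; limma adjusted p = 0.00548).

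Slc25a2, an ornithine carrier, was dim: none of the old controls was well above background, and all 4 old MICT arrays were. Its measured levels were -5.57, -6.63, -5.68 and -5.24 in the old controls and -2.94, -3.9, -4.34 and -4.04 in old MICT. Old MICT was at least 1.36-fold higher, a bound that sets the MICT mean against the lowest signal well above background, or the probe's own where higher, on each control array (fit difference 1.97 ± 0.37 SE, limma adjusted p = 0.00339). Slc25a12, the aspartate-glutamate carrier of muscle (aralar), was at 5.79, 5.95, 6.44 and 6.27 in the old controls and 6.38, 6.62, 6.55 and 6.58 in old MICT. Old controls 1 and 2 were the low arrays, and control 3 lay within the MICT range. It rose by 0.42 ± 0.13 (SE; limma adjusted p = 0.0223), a call that was lost without old control 1, old control 2 or old MICT 2. With the marker scores as covariates its difference was -0.01. The other amino acid carriers were not called: Slc25a22 (glutamate) had 1.1 ± 0.46 (SE), and Slc25a13 (citrin), Slc25a15 (ornithine) and Slc25a29 (basic amino acids) had differences between -0.44 and 0.1.

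Slc25a20, the acylcarnitine carrier, is a single-member class. Its level was 0.5, 0.92, 1.6 and 1.12 in the old controls and 2.37, 1.72, 1.86 and 1.62 in old MICT. Control 3 came close to the lowest MICT array, and the groups did not overlap. The rise was 0.86 ± 0.26 (SE; 1.82-fold; limma adjusted p = 0.0203), and the call was lost without old control 1, old control 2 or old MICT 1. Adult controls were at 1.45 to 1.75, among the lower 3 MICT arrays and old control 3.

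The iron and glutathione carriers were divided. Slc25a28 (mitoferrin-2) imports iron; it was at 3.24, 3.23, 3.41 and 3.09 in the old controls and 4.41, 4.7, 3.54 and 3.63 in old MICT. MICT arrays 1 and 2 stood well above 3 and 4, and all 4 were above the controls. It rose by 0.83 ± 0.21 (SE; 1.77-fold; limma adjusted p = 0.00937). Its paralogue Slc25a37 (mitoferrin-1) was at 2.4, 2.26, 2.59 and 2.56 in the old controls and 1.86, 2.37, 2.58 and 2.92 in old MICT. The difference was -0.02 with a 95% interval from -0.41 to 0.37. Slc25a39, which imports glutathione, rose by 0.49 ± 0.18 (SE; limma adjusted p = 0.0453) with overlapping groups, and its call was kept only without old control 3 or old MICT 1. Slc25a40, its close relative, had a difference of 0.01.

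Of 3 adenine nucleotide and phosphate carriers tested, the ATP supply line of the fibre, 1 rose (33.3%, against 21.2% of all features) and 0 fell (against 9.03%). Slc25a3 was at 6.14, 6, 6.85 and 6.28 in the old controls and 6.88, 6.79, 6.77 and 6.84 in old MICT. Old control 3 lay within the MICT range and the other 3 below it. Slc25a3 rose by 0.5 ± 0.17 (SE; limma adjusted p = 0.0318), a call kept only without old control 3 or old MICT 3. Slc25a4, the adenine nucleotide translocase of muscle, was at 9.79, 9.37, 10.24 and 9.69 in the old controls and 10.12, 10.04, 9.71 and 10.37 in old MICT. These groups overlapped, with a difference of 0.29 and a 95% interval from -0.19 to 0.76. Slc25a5, the translocase found in most tissues, had a difference of -0.24 (95% interval -0.68 to 0.21).

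Of the uncoupling protein-like carriers, Slc25a27 rose by 0.57 ± 0.18 (SE; limma adjusted p = 0.0224). It was at -0.02, 0.1, 0.61 and 0.48 in the old controls and 1.06, 0.62, 1.05 and 0.7 in old MICT, which just did not overlap. The call was lost without old control 1, old control 2 or old MICT 1, and in the slide model the difference was -0.2. Slc25a14 and Slc25a30 had differences of 0.22 and 0.58 and were not called.

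The little-characterised carriers moved both ways. Slc25a34 was at -1.02, 0.25, 1.88 and 1.68 in the old controls and 4.95, 2.78, 3.43 and 2.15 in old MICT. Controls 1 and 2 were far below controls 3 and 4, and no control reached a MICT array. The rise of 2.63 ± 0.68 (SE; 6.2-fold; limma adjusted p = 0.0102) was the greatest fitted among the members. Slc25a46, an outer membrane protein linked to mitochondrial fusion and fission, was at 3.55, 3.39, 3.61 and 3.23 in the old controls and 3.91, 4.05, 3.77 and 3.7 in old MICT, with no overlap. It rose by 0.41 ± 0.12 (SE; limma adjusted p = 0.02), and the call was lost without old control 2 or 4 or old MICT 1 or 2. Slc25a45 was at -1.55, -1.82, -2.28 and -1.76 in the old controls and -2.34, -2.93, -2.4 and -2.92 in old MICT. It fell by 0.79 ± 0.21 (SE; limma adjusted p = 0.0124), and control 3 came close to the highest MICT array. Slc25a35 and Slc25a47, at -0.68 and -0.21, were not called.

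Of 3 carboxylate and keto acid carriers tested, 2 fell (66.7%, against 9.03% of all features) and 0 rose (against 21.2%). Slc25a1, the citrate carrier, was at 1.32, 0.06, -0.49 and -1.07 in the old controls and -2.1, -2.1, -1.3 and -1.25 in old MICT. Every control was above every MICT array, and the controls spread over more than 2 log2 units. The fall was 1.64 ± 0.46 (SE, n = 4 and 4; limma adjusted p = 0.0143), and without old control 1 the adjusted p was 0.0578. Adipocyte markers took the same order over old controls 1 to 4 (3.95, 2.82, 2.19 and 0.21) and were 0.2, 2.2, 0.72 and 0.9 in old MICT. B and plasma cell markers also took that order over the old controls (6.08, 4.75, 2.38 and 2.12). The part of any 1 cell type in the level of Slc25a1 was not tested. With marker scores as covariates the difference of Slc25a1 was -0.74 ± 0.55 (SE).

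Slc25a10, the dicarboxylate carrier, was well above background on 3 old controls and on none of the old MICT arrays. Its levels were -2.7, -3.56, -3.99 and -4.17 in the old controls and -6.08, -5.34, -5.36 and -4.47 in old MICT. It was at least 1.62-fold lower with MICT by the same kind of bound (fit difference -1.71 ± 0.54 SE, limma adjusted p = 0.0242), and the call was lost without old control 1 or 2 or old MICT 1 or 2. With normexp background correction the difference was -0.23 and was not called. Slc25a11, the oxoglutarate carrier, was at 6.59, 6.48, 7.18 and 6.85 in the old controls and 7.07, 6.95, 7.33 and 7.19 in old MICT. These groups overlapped, and the difference of 0.36 ± 0.15 (SE; limma adjusted p = 0.0746) was not called.

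The calcium-regulated ATP-Mg/phosphate carriers set the size of the matrix adenine nucleotide pool. Slc25a24 was at 0.45, 0.65, 0.8 and 1.94 in the old controls and -0.31, -0.06, 0.24 and 0 in old MICT. Old control 4 stood above the rest, and the groups did not overlap. Slc25a24 fell by 0.99 ± 0.26 (SE; limma adjusted p = 0.011). Old control 4 was also the array with the highest median of neutrophil and mast cell markers, 7.23; their part in the level was not tested, and the call was kept when that array was left out. Slc25a25 was at 0.36, 0.66, 0.62 and 0.92 in the old controls and 0.41, 1.89, 1.06 and 1.75 in old MICT. The difference of 0.64 ± 0.45 (SE) was not called. Slc25a23 was not called either (0.19 ± 0.39 SE).

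Leaving out 1 array at a time left between 9 and 21 members called. The lowest number was without old control 2 (9, with 15.6% of all features called). Next was old control 1 (11, with 18.5%). In all 8 fits that left out 1 array of these 2 groups, 8 of the 19 members remained called: Slc25a2, Slc25a24, Slc25a28, Slc25a33, Slc25a34, Slc25a38, Slc25a44 and Slc25a45. With normexp background correction Slc25a2 (0.49 ± 0.2 SE), Slc25a45 (-0.4 ± 0.15), Slc25a12, Slc25a3 and Slc25a10 were not called.

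**Figure D3:**
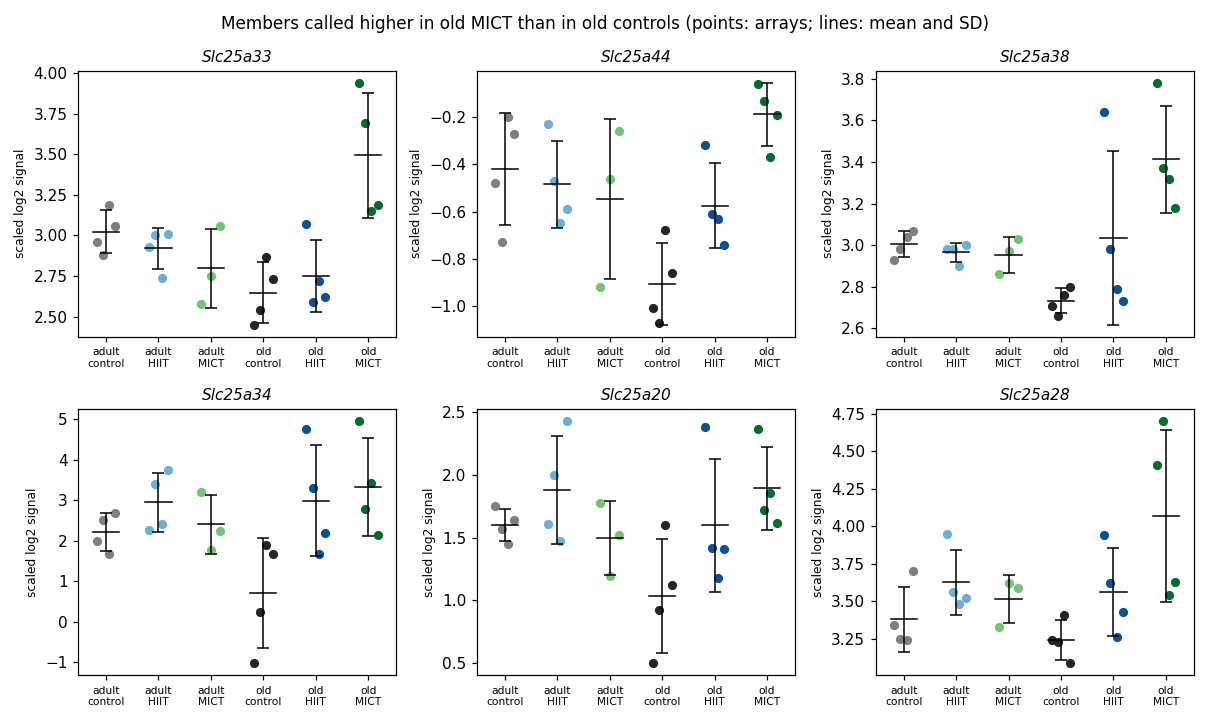
Scaled log2 signal of Slc25a33, Slc25a44, Slc25a38, Slc25a34, Slc25a20 and Slc25a28 on each array, by group, with the mean and SD. In each panel the 4 old MICT points lie above the 4 old control points; Slc25a33 runs from 2.45 in an old control to 3.94 in an old MICT array.

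Age in sedentary mice was examined with old against adult controls, which lay on different slides. Of 39 members, 7 fell (17.9%, against 9.07% of all features) and 0 rose (against 4.58%). The median difference was -0.3 log2 units, against -0.15 over all features. Of the 35 members above background on all arrays, 6 fell. Both controls enter this comparison and old controls also enter the MICT comparison in old mice, so the 2 sets of differences share arrays. Quantile scaling gave 1 rise and 6 falls, and called 12.4% of all features. Some markers of other cells were called higher in old controls, against 4.58% of all features. They were 7 of 8 for B and plasma cells, 6 of 11 for T and NK cells, 3 of 10 for adipocytes and 1 of 2 for hepatocytes. Of 7 macrophage, 9 neutrophil and mast cell and 8 fibroblast markers 0 were called, and 1 of 4 erythroid markers was lower. Of 10 gastrocnemius fibre genes 2 were lower (20%, against 9.07% of all features), with a median difference of -0.29. Of 10 slow-twitch genes 0 were called.

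The fall with the smallest p was that of the NAD+ carrier. Slc25a51 was at 3.86, 3.44, 3.68 and 3.8 in adult controls and 2.99, 2.93, 3.27 and 3.07 in old controls, with no overlap. It fell by 0.63 ± 0.13 (SE, n = 4 and 4; limma adjusted p = 0.00848) and stayed called when each of the 8 arrays was left out, the 1 member of the 7 to do so. A second probe of Slc25a51 gave -0.22, against -0.63 for the probe used. Slc25a39, the glutathione carrier, was at -0.63, -1.37, -0.78 and -1.01 in adult controls and -1.59, -1.69, -1.31 and -1.73 in old controls. These overlapped at 1 adult array, and Slc25a39 fell by 0.63 ± 0.18 (SE; limma adjusted p = 0.0288). Slc25a42 (coenzyme A) was at 4, 3.74, 4.06 and 4.29 in adult controls and 3.16, 3.21, 3.79 and 3.52 in old controls, and it fell by 0.6 ± 0.17 (SE; limma adjusted p = 0.0289). Old control 3 was again the one nearest the adult values.

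Slc25a47, a carrier known mainly from liver, was at 0, -0.06, 0.39 and 0.33 in adult controls and -0.83, -0.61, -0.38 and -0.34 in old controls. It fell by 0.7 ± 0.21 (SE; limma adjusted p = 0.0348) without overlap. It was also low in trained old mice, at -0.75 to -0.44 in HIIT and -1.49 to -0.08 in MICT. Slc25a27 fell by 0.56 ± 0.18 (SE; limma adjusted p = 0.0424) and Slc25a44 by 0.48 ± 0.16 (SE; limma adjusted p = 0.046), both with overlap. Slc25a2 was well above background on 2 adult controls and no old control, which gives at least 1.02-fold lower levels in old controls (fit difference -1.56 ± 0.37 SE, limma adjusted p = 0.016). The call of Slc25a2 was lost without adult control 1 or old control 2. Those of Slc25a27, Slc25a39, Slc25a42, Slc25a44 and Slc25a47 were lost without adult control 1, 3 or 4 or old control 1 or 2, and those of Slc25a39 and Slc25a44 also without old control 4. With normexp background correction Slc25a2 (-0.22 ± 0.2 SE), Slc25a39 and Slc25a44 were not called.

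The citrate and dicarboxylate carriers and the translocase Slc25a5 were on the other side without passing the test. Slc25a1 was at -0.75, -1.3, -1.28 and -1.27 in adult controls, below all old controls but the fourth at -1.07, which lay below adult control 1, and its difference was 1.1 ± 0.46 (SE; limma adjusted p = 0.102). Slc25a10 had 1.43 ± 0.54 (SE; limma adjusted p = 0.0754), and old controls were at least 1.89-fold brighter than adult controls, none of which was well above background. Slc25a5 was at 2.13, 2.78, 2.28 and 1.98 in adult controls and 2.7, 2.79, 2.56 and 3.37 in old controls. The difference was 0.56 ± 0.21 (SE; limma adjusted p = 0.076). Slc25a3, Slc25a4, Slc25a11, Slc25a12, Slc25a20, Slc25a25 and Slc25a37 had differences from -0.84 to -0.11 and were not called.

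Without adult control 1 or old control 2 only 1 member was called (2.15% and 2.21% of all features). Without adult control 3, adult control 4 or old control 1 there were 2 (3.03%, 3.58% and 2.84%). Without old control 3 there were 13 (24.5%). In the slide model, with only these 2 groups in the fit, with the marker scores as covariates, or without old controls 1 and 2 together, 0 members were called.

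**Figure D4:**
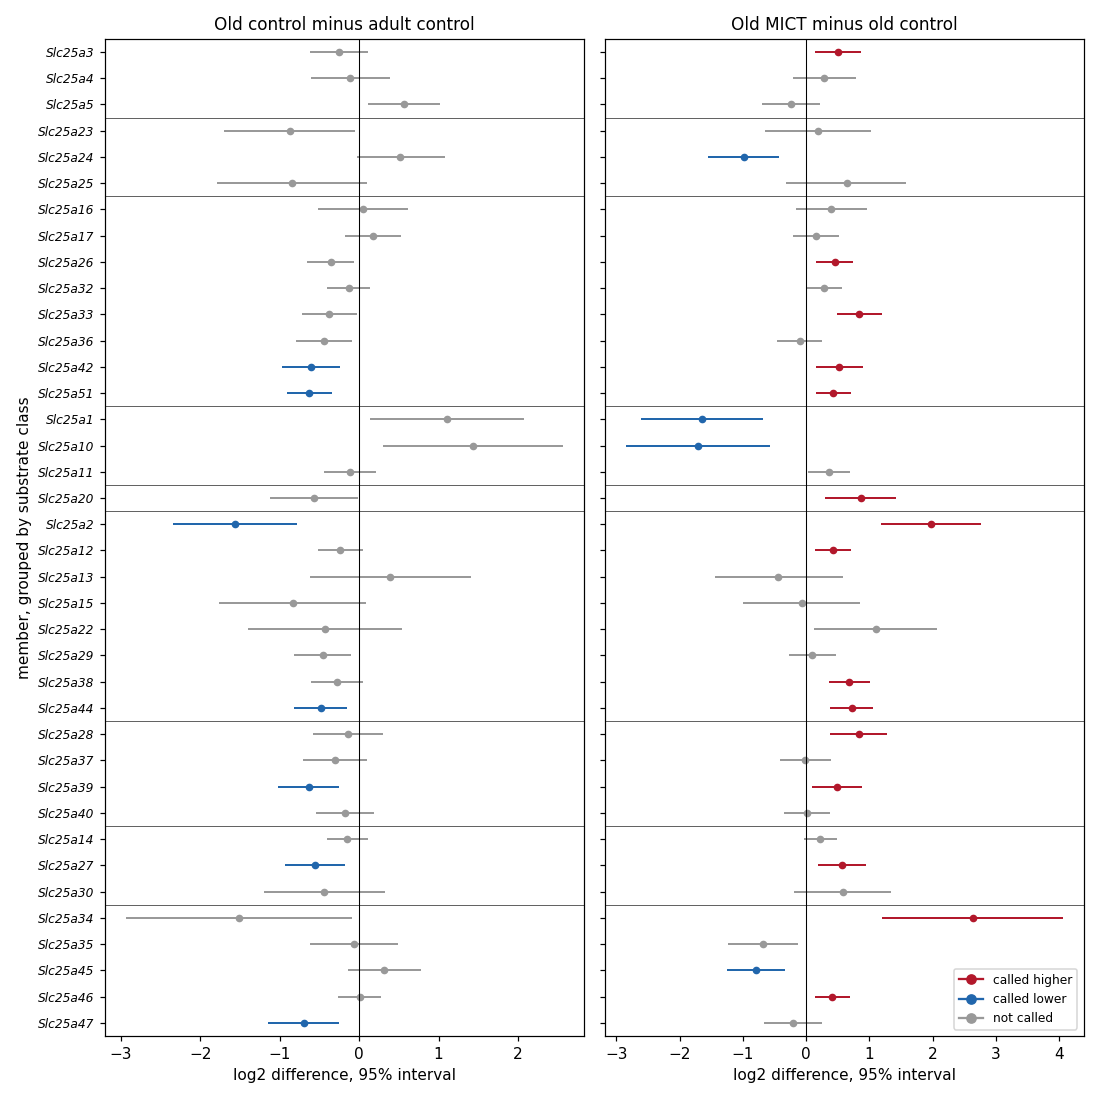
Log2 differences with 95% intervals for 38 of the 39 members, grouped by substrate class, for old against adult controls (left) and old MICT against old controls (right); red is called higher, blue called lower and grey not called. On the left the 7 called members are all lower; on the right 15 are higher and 4, Slc25a1, Slc25a10, Slc25a24 and Slc25a45, are lower.

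**Figure D5:**
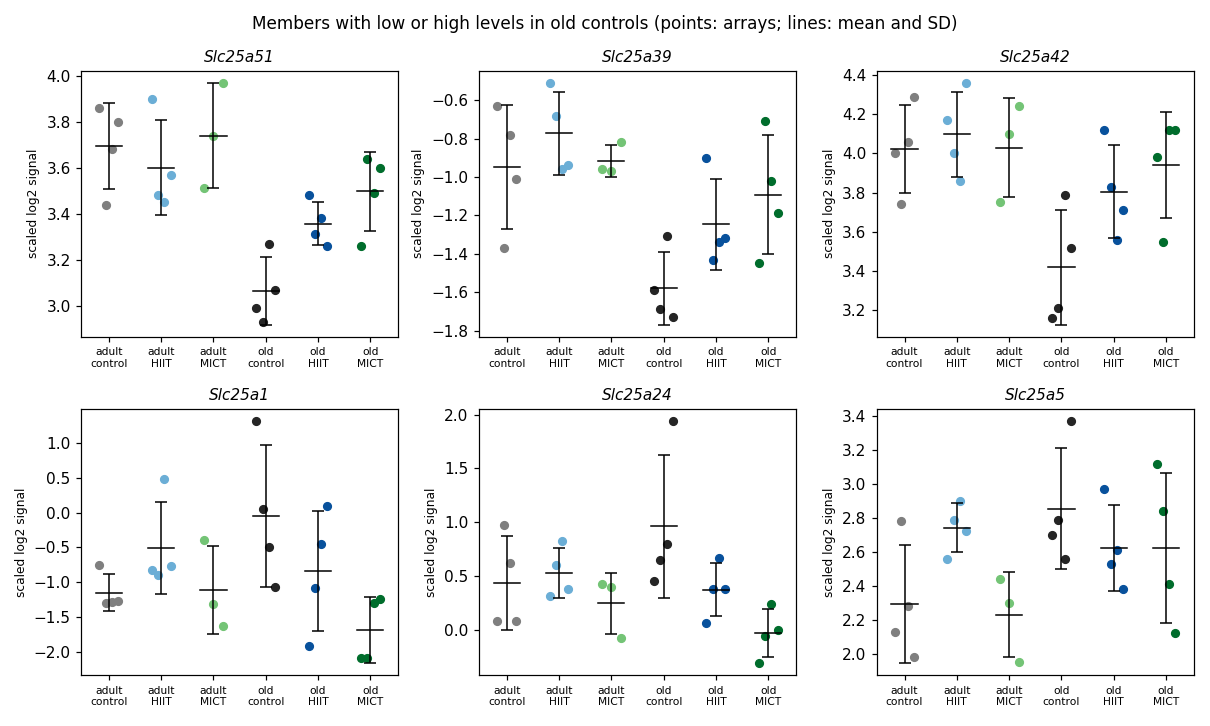
Scaled log2 signal of Slc25a51, Slc25a39, Slc25a42, Slc25a1, Slc25a24 and Slc25a5 on each array, by group, with the mean and SD. The first 3 are lowest in old controls, and Slc25a1 spreads from -1.07 to 1.32 in old controls against -2.1 to -1.25 in old MICT.

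In both comparisons 6 members were called: Slc25a2, Slc25a27, Slc25a39, Slc25a42, Slc25a44 and Slc25a51. They are 6 of the 7 called lower in the old controls and 6 of the 15 called higher with MICT, and both calls rest on the same 4 old controls. For 3 of them the mean and SD are given side by side. Slc25a51 was 3.69 ± 0.18 (SD, n = 4) in adult controls, 3.06 ± 0.15 in the old controls and 3.5 ± 0.17 in old MICT. Slc25a42 was 4.02 ± 0.22, 3.42 ± 0.29 and 3.94 ± 0.27, and Slc25a44 was -0.42 ± 0.24, -0.9 ± 0.17 and -0.19 ± 0.13, in the same order.

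Whether MICT acted differently at the 2 ages was tested as a difference of differences. Slc25a33 was the 1 member called (2.56% of members, against 0.582% of all features called higher and 0.0844% lower). In adult mice it was at 2.96, 2.88, 3.19 and 3.06 in controls and 2.58, 2.75 and 3.06 in MICT, a difference of -0.22 ± 0.18 (SE), against 0.84 ± 0.16 in old mice. The response was greater in old mice by 1.07 ± 0.24 (SE; limma adjusted p = 0.0433; 95% interval 0.57 to 1.56). It lost its call without any 1 of 11 of the 15 arrays involved, with adjusted p up to 0.109, and without old MICT 1 and 2 together. The slide model gives 1 MICT effect for both ages, 0.64, and so no difference of responses. Slc25a2 (2.04 ± 0.55 SE), Slc25a44 (0.84 ± 0.23) and Slc25a38 (0.73 ± 0.22) had the next smallest p-values and were not called. Slc25a2 was well above background on 0 old controls, 2 adult controls and 2 adult MICT arrays. For Slc25a44 the MICT differences in old and adult mice were 0.72 and -0.13, and its second probe gave 0.53 and 0.19.

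In adult mice neither training called a member. With MICT, 0 of 39 members and 0 of 23707 features were called, and 0 members had an unadjusted p under 0.05 (500 features, 2.11%). The members with the smallest p were Slc25a30 at -0.73 ± 0.39 (SE), Slc25a33 and Slc25a29, both at -0.22 ± 0.18. Slc25a20, at 1.78, 1.19 and 1.52 in adult MICT, had a difference of -0.1 ± 0.28 (SE). Adult HIIT lay on the same slide as its controls: 0 members and 0 features were called, and 4 members had an unadjusted p under 0.05 (5.13% of all features had). Slc25a30, an uncoupling protein-like carrier, was at -2.15, -2.63, -1.1 and -2.12 in adult controls and -2.74, -2.89, -2.54 and -3.57 in adult HIIT, with overlap. Its difference was -0.93 ± 0.36 (SE; limma adjusted p = 0.914). Slc25a27 and Slc25a37 had -0.38 ± 0.18 and -0.4 ± 0.19 (SE).

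In old mice, HIIT called 0 members (101 features, 0.426%, were higher and 2 lower), and 9 members had an unadjusted p under 0.05 (15.5% of all features had). The members with the smallest p lay in the direction seen with MICT, against the same old controls. Slc25a34 was at 4.76, 3.31, 1.68 and 2.2 in old HIIT, and its difference was 2.29 ± 0.68 (SE; limma adjusted p = 0.136). Array 1 was highest and array 3 overlapped the controls, and without old control 3 the adjusted p was 0.0441. Slc25a2 had a fit difference of 1.15 ± 0.37 (SE), with 1 HIIT array and 0 old controls well above background, and no lower bound could be given. Slc25a51 was at 3.48, 3.31, 3.38 and 3.26, a difference of 0.29 ± 0.13 (SE; limma adjusted p = 0.281), and its second probe gave 0.1. In the slide model Slc25a2 and Slc25a51 were -0.13 and -0.09. Slc25a20 was at 2.38, 1.42, 1.18 and 1.41 in old HIIT (0.56 ± 0.26 SE), and array 1 alone lay above all old controls. HIIT responses did not differ between ages for any member past the threshold; the smallest p was that of Slc25a27 at 0.77 ± 0.25 (SE; limma adjusted p = 0.362), followed by Slc25a30 (1.26 ± 0.51) and Slc25a2 (1.27 ± 0.52).

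The 2 trainings were also set against each other. In old mice, where both groups lay on the third slide, 0 members were called and 0 features, and 7 members had an unadjusted p under 0.05 (17.1% of all features had). Slc25a33 was at 3.07, 2.59, 2.72 and 2.62 in old HIIT, below every old MICT array, a difference of -0.74 ± 0.16 (SE; limma adjusted p = 0.209). Slc25a38, at 3.64, 2.98, 2.79 and 2.73 in old HIIT, had -0.38 ± 0.15 (SE), and Slc25a44 -0.39 ± 0.16, where its second probe gave 0.16, the opposite sign. Without the arrays with the highest neutrophil marker scores (old control 4, old HIIT 1 and old MICT 3) 4 members were called lower in HIIT. In that fit 8.45% of all features were called in either direction. In adult mice 0 members and 0 features were called. Slc25a37 had -0.44 ± 0.2 (SE), Slc25a5 0.51 ± 0.23 and Slc25a13 1.12 ± 0.52. Slow-twitch markers were higher in adult HIIT than in adult MICT, by a median of 1.96. Of these markers 8 of 10 had an unadjusted limma p under 0.05 (1821 of all 23707 features had).

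Other genes of carrier biology were followed by lists. Of 13 genes that import carriers into the inner membrane, 8 rose (61.5%, against 21.2% of all features) and 0 fell (against 9.03%) with MICT in old mice, a comparison in which the slide model and the fit of only these 2 groups called 0 features. The list had a median of 0.31 against 0.19 for all features. Timm29, a subunit of the TIM22 complex, rose by 0.61 ± 0.14 (SE), and Timm9, a small chaperone, from 1.5, 1.62, 1.89 and 1.82 to 2.25, 2.06, 2.18 and 2.12, by 0.45 ± 0.11 (SE; limma adjusted p = 0.00844). Tomm70a, the outer membrane receptor for carriers, was at 2.01, 2.07, 2.47 and 2.23 in the old controls and 2.73, 2.81, 2.7 and 2.61 in old MICT and rose by 0.52 ± 0.13 (SE). Timm8b rose by 0.37 ± 0.1 (SE). With age, Timm8b and Timm9 fell by 0.44 and 0.37 (15.4%, against 9.07% of all features), and the other 11 genes were not called. For age too the slide model called 0 features.

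Of 14 enzymes that work with carriers, 5 rose (35.7%, against 21.2% of all features) and 1 fell (7.14%, against 9.03%) with MICT in old mice. Crat and Cpt1b, which form the carnitine esters handled by Slc25a20, rose by 0.92 ± 0.24 and 0.6 ± 0.17 (SE). Crat was at -0.59, -0.14, 0.53 and -0.3 in the old controls and 1.11, 0.63, 0.59 and 0.85 in old MICT. Ckm, the cytosolic creatine kinase and also a gastrocnemius fibre marker here, rose by 0.78 ± 0.22 (SE), and Got1 and Ckmt2 were the others that rose. Acly, which splits the citrate exported by Slc25a1, fell by 1.24 ± 0.32 (SE; limma adjusted p = 0.0109), from 5.19, 3.84, 3.44 and 3.06 in old controls to 2.58, 2.76, 2.63 and 2.6. It was higher in old than adult controls by 1.15 ± 0.32 (SE; limma adjusted p = 0.0287), and its old controls ran in the same order as those of Slc25a1. With age Acly was the 1 gene that rose (7.14%, against 4.58% of all features). Ckm, Crat and Got2 were the 3 that fell (21.4%, against 9.07%).

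Of 17 other transporters of mitochondrial membranes tested, 6 rose (35.3%, against 21.2% of all features) and 2 fell (11.8%, against 9.03%) with MICT in old mice. With age 1 rose (5.88%, against 4.58%) and 4 fell (23.5%, against 9.07%). The pyruvate carrier subunits Mpc1 and Mpc2 rose by 0.44 ± 0.13 and 0.35 ± 0.11 (SE), and the ABC transporter Abcb8 by 0.7 ± 0.15. Letm1 and Vdac1 also rose, and Sfxn1 and Sfxn2 fell. Sfxn1, a serine transporter named after its values were seen, fell by 0.95 ± 0.32 (SE) with MICT and was 1.08 ± 0.32 higher in old than adult controls. Of 4 family carriers tested under other symbols, Ucp3 was called higher with MICT in old mice (25%, against 21.2% of all features). It was at -1.74, -0.97, -0.23 and -0.63 in the old controls and 3.6, 4.62, 0.48 and 0.3 in old MICT. MICT arrays 1 and 2, which were also highest for Slc25a28 and Slc25a33, were far above arrays 3 and 4. In old HIIT 0 genes of these 4 lists were called.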

How the data were processed

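Muscle RNA of 23 mouse samples was measured on 1-colour Agilent arrays. The authors deposited scanner files with processed signal intensity, background-subtracted by Feature Extraction 12.0.3.1 per the file headers, and a value table of an unstated score. That score correlated with log10 signal at r of at least 0.99954 on each array and was used as an alternative. Intensities were taken as log2, minus each array's 75th percentile; control spots and flagged spots were left out. RefSeq accessions of probes were matched to symbols (28331 of 29786). The array files name mm9; names came from GRCm38.p6, with no coordinates carried over. The probe with the highest mean stood for a gene. Group means were fitted with limma 3.58.1 in R 4.3.3 (lmFit, eBayes with a trend). On simulated data it found 171 of 200 features changed by 2 log2 units in old MICT among 23707, with 11 false calls. The simulated noise was independent between features and held no slide effect or shift in cell content. It therefore cannot test the calls against these. Members were named when called (the 12 smallest p where more were), the 3 smallest p where none was, and in a fixed set; Slc25a10 and the other called members were added with values seen. Alternatives covered background, scaling, filter, array weights, replicate block, slide, marker covariates and arrays left out. The members and lists were chosen with earlier results of these data known. Arrays carry no count of molecules, and their number limits the precision. Some genes tested and counted are not reported here by name.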

Additional observations from a re-analysis of the deposited data

Results flagged for a closer look

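In 7 of 195 sets (39 members in 5 groups of 4 arrays), 1 array stood apart from the other 3; chance gives about 1 in 20. Slc25a1 was at -0.75 in adult control 1, against -1.3 to -1.27 in the others, and at 0.49 in adult HIIT 3, against -0.9 to -0.77. Slc25a28 was at 3.95 in adult HIIT 1, against 3.48 to 3.56, and Slc25a37 at 2.83 in the same array, against 2.14 to 2.25. Slc25a4 was low, at 9.29, in adult HIIT 3 (the others 9.86 to 9.92) and at 9.13 in old HIIT 2 (the others 10.05 to 10.23). Slc25a16 was low, at 1.26, in old MICT 1 (the others 1.66 to 1.73).

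The response of Slc25a33 to MICT differed between old and adult mice by 1.07 log2 units (limma adjusted p = 0.0433), by the test of the difference itself. The difference kept its sign in 32 other settings, from 0.66 to 1.21 on the log2 scale apart from the deposited table, and was past the threshold in 13 of them; it lost its call without any 1 of 11 of the 15 arrays, with normexp background, without the filter on dim probes, with the replicate block and with the marker covariates (adjusted p = 0.591).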

How the results depend on the processing

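For MICT against sedentary old mice, 19 members and 30.2% of all features were called. An additive slide term, a fit of only the groups compared, marker covariates, or leaving out old MICT 1 and 2 together gave 0. Leaving out old controls 1 and 2 together gave 1, with 1.68% of all features called. The deposited value table and a fold of at least 1.5 each gave 11 (17.3% and 20.1% of all features). Leaving out 1 array gave 9 to 21 (15.6% to 37% of all features). For old against adult controls (7), array weights gave 17 (3 higher, 14 lower), with 32.3% of all features called. The slide term, only the groups compared, marker covariates, and old controls 1 and 2 left out gave 0. With 1 array left out there were 1 to 13 (2.15% to 24.5% of all features). For the MICT response (1), array weights gave 6 (10.4% of all features). Leaving out the 3 arrays with high neutrophil scores gave 4 (2.48%). Normexp background, no filter on dim probes, the replicate block and only the groups compared gave 0. So did the deposited table, marker covariates and both pairs of arrays left out. With 1 array left out there were 0 to 3 (0.0591% to 8.63%). HIIT against MICT gave 5 in adult mice with array weights (13.8% of all features). Without the high-neutrophil arrays it gave 4 in old mice (8.45%). HIIT in old mice gave 0 to 1 when 1 array was left out (0.0464% to 3.51%). The cause of these changes was not tested. The slide model gives a regimen 1 effect at both ages, so its values do not belong to 1 age alone. Single members turned sign in it: Slc25a33 with MICT against its value in adult mice (0.64) and Slc25a27 against its value in old mice (-0.2). Slc25a2 and Slc25a51 did so with HIIT against their values in old mice (-0.13 and -0.09). Slc25a5 and Slc25a37 did so for HIIT against MICT, against their values in adult mice (0 and 0.04). With marker covariates so did Slc25a12 with MICT in old mice (-0.01) and Slc25a13 for HIIT against MICT in adult mice (-0.01). Replicate numbers do not pair the samples (correlations of deviations from -0.32 to 0.34); the replicate block gave 20 members for MICT in old mice and 7 for age. Slide and group cannot be told apart without the additive assumption, except within slides. The pairs of old MICT arrays and the high-neutrophil arrays were chosen after seeing the data. Members not well above background have only a bound.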
